A study of Mus musculus with 10 samples.

Results

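Molecular chaperones were measured in thymic invariant natural killer T (iNKT) cells of wild-type (WT) and Id3KO mice. The 75 chaperone genes were taken by symbol and signal: every gene whose array symbol starts with Hsp or Dnaj, or is Cct or Bag followed by a digit, with Hspg2 left out. Of 87 such genes in the array annotation, these 75 had a probe set that exceeded the table's median log2 intensity, 5.78, on 2 or more of the 10 arrays. The other 12 did not. Each gene is represented by its probe set of highest mean, and the whole table held 45037 probe sets, of which 25061 passed the same filter. Those 25061 covered 11951 genes. The member closest above the filter was Dnajb14, with a second-highest log2 intensity of 5.793, and the closest left out was Hspa12a, at 5.775. A few members are chaperones in name only, such as Hspb11, a component of intraflagellar transport.

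All cells were sorted from the thymus of 6-week-old C57BL/6 mice as CD1d-tetramer-binding, CD24-, NK1.1- cells, so that no group held NK1.1+ iNKT cells. Stage 1 cells were CD44- and stage 2 cells CD44+. Each genotype contributed 2 arrays of stage 1 cells and 3 arrays of stage 2 cells, which makes 4 groups. The labels call the replicates biological and do not say how Id3 was deleted, in which cells, or whether an array held 1 mouse or a pool. P-values therefore measure only the spread between these arrays. Id3 encodes an inhibitor of E protein transcription factors, and the design asks what its loss does to gene expression at each stage.

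Chaperones bind proteins that are not yet folded or have lost their fold. In the cytosol, Hsp70 takes up such proteins with the help of J proteins, which start its ATP cycle, and of Bag proteins, which release the nucleotide. Hsp90 and the ring-shaped Cct chaperonin finish selected clients, including kinases, actin and tubulin. Hspd1 (Hsp60) and its lid Hspe1 (Hsp10) do the same in mitochondria. Heat or other stress induces part of the set through heat shock factors, which bind repeats of a short element in the promoter, and lymphocytes also raise chaperones when they grow.

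At stage 2, 50 of 75 chaperone genes (66.7%) read higher in Id3KO than in WT cells, against 51.6% of all probe sets. The differences were mostly small, and few single genes passed the test in any comparison. Hspd1 and Bag3 were the only members called, as higher in Id3KO when genotype was averaged over both stages. That is 2.67% of members, against 2.18% of all probe sets. At either stage alone 0 of 75 were called. Of all probe sets, 0.459% were called higher and 0.343% lower at stage 1, and 1.82% and 2.39% at stage 2. The largest difference was that of the stress-inducible Hspa1a, 1.54 ± 0.36 (log2, SE) at stage 2, an adjusted p of 0.0505 by limma. All 7 measured Cct subunits lay higher on each Id3KO stage 2 array than on any WT stage 2 array, as did 10.9% of all probe sets.

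Promoter sequences are shown for 3 genes with an element of heat shock factors before the start: Hspe1, which shares its stretch with the called Hspd1, and the pair of largest difference, Hspa1a and Hspa1b. Bag3 also had an element, within 250 bases before to 50 after a start, and is not shown. The sequences are from RefSeq, mouse build GRCm38.p6, and give the 120 bases before the start of transcription, 5′ to 3′, with heat shock elements of 2 units (GAANNTTC or TTCNNGAA) in capitals. The Hspe1 stretch lies at chr1:55088028-55088147 on the forward strand. The other stretches lie on the reverse strand, Hspa1a at chr17:34972157-34972276 and Hspa1b at chr17:34959239-34959358.
Hspe1: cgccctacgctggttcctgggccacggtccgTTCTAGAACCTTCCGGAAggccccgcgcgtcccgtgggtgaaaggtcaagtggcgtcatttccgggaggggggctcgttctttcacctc
Hspa1a: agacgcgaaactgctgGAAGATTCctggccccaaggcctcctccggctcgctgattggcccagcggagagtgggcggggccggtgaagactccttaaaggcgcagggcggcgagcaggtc
Hspa1b: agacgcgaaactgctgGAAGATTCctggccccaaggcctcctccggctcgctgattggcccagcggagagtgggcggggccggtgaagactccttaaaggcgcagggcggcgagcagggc

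Hspe1 and Hspd1 are transcribed away from each other from starts 216 bases apart, so the stretch printed for Hspe1 lies between both starts and gives the 120 bases nearest to Hspe1. A further RefSeq start of Hspd1 lies 95 bases past the Hspe1 start. The stretch held 3 overlapping 2-unit elements, which form a longer run. Hspa1a and Hspa1b lie 12918 bases apart, and their windows were identical at 296 of 300 bases. Promoter windows, from 250 bases before to 50 after a start, were at hand for 61 members (80 windows). A 2-unit element on either strand was found in 25% of them and in 15.1% of all 32851 windows. It was present in 18 of the 61 member genes, and those printed were picked by call or size of difference. An element of 3 alternating units, which contains 2-unit elements, was found in 6 member windows (7.5%), against 0.603% of all. These belong to 4 genes, Dnajb6, Hspd1, Hspe1 and Hsph1, and Hspd1 and Hspe1 share a stretch, so the windows are not all separate. Id3KO minus WT, averaged over the stages (log2), was 0.28 for Hspd1, 0.22 for Hspe1 and -0.04 for both Dnajb6 and Hsph1. The endoplasmic reticulum stress element was found in 3.75% of member windows, those of Dnajc3, Hsp90b1 and Hspa5, against 0.119% of all. Of the E boxes that E proteins favour, CAGCTG was in 15% of member windows and 16.3% of all. CAGGTG was in 10% of member windows and 20.2% of all. The E box of Myc, CACGTG, was in 10% and 7.15%. A match describes these letters only and is not evidence of binding.

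The labels were checked first. Id3 had log2 intensities of 9.68 to 10.33 on the WT arrays and 5.76 to 6.13 on the Id3KO arrays, and it was lower in Id3KO by limma at stage 1 (-4.32 ± 0.16, adjusted p = 1.83e-05) and stage 2 (-3.83 ± 0.13, adjusted p = 9.02e-06). Median intensity was 54.8 to 55.5 per array. Of 12 T cell markers 11 were kept, Zbtb16 and Cd3e among them. Their summed intensity was 13254 to 14231 on the WT stage 2 arrays and 10936 to 12524 on the Id3KO stage 2 arrays, with no overlap. At stage 1 the sums were 13651 to 14264 in WT and 12471 to 13006 in Id3KO, again without overlap. A sum weighs bright markers most. Thy1 read 11.56, 11.48 and 11.58 (log2) in WT stage 2 and 10.27, 9.70 and 10.49 in Id3KO stage 2. The brighter Cd3d and Cd3g differed by 0.09 and -0.06 at stage 2 and were not called. Single markers went both ways at stage 2, where Thy1 (-1.39, adjusted p = 0.00385 by limma) and Il2rb (-0.95, adjusted p = 0.0326) were called lower and Slamf6 higher (0.63, adjusted p = 0.0022), and the list median was -0.06. On average over the stages Cd247 was also called lower (-0.54, adjusted p = 0.00569). Each sum takes all markers of a list that had a probe set, kept or not. Of 10 double-positive thymocyte markers 9 had a probe set. Their sum was 903 to 986 on the WT stage 2 arrays and 676 to 839 on the Id3KO stage 2 arrays. At stage 1 the sum was 984 to 985 in WT and 866 to 869 in Id3KO. Only 4 of the 9 markers were kept, without Rag1 or Rag2 among the 4. Of these Cd1d1, the brightest, was called lower at stage 2 (-0.78, adjusted p = 0.0436 by limma) and the list median was 0.06. B cell sums on the WT and Id3KO stage 2 arrays (9 markers with a probe set, 5 of them kept) were 793 to 946 and 542 to 904. Myeloid sums (13 markers with a probe set, 6 of them kept) were 683 to 728 and 698 to 802. Both overlapped between the genotypes, and both include markers that did not pass the filter. Thymic epithelial sums (10 markers with a probe set, 7 of them kept) were 544 to 590 and 568 to 590. Of 7 erythroid markers 4 had a probe set, and their sums were 197 to 199 and 193 to 194. Only Hba-a1 of these was kept. The summed Cd44 and Cd24a transcripts, whose proteins were used in the sort, were 250 to 269 in WT stage 1, 694 to 919 in WT stage 2, 183 to 313 in Id3KO stage 1 and 320 to 625 in Id3KO stage 2. Cd44 alone read 9.35, 9.64 and 9.74 (log2) in WT stage 2 and 9.17, 8.13 and 8.99 in Id3KO stage 2. These did not overlap, and the difference was -0.82 ± 0.33 (adjusted p = 0.241 by limma). At stage 1 Cd44 read 7.20 and 7.81 in WT and 7.03 and 7.99 in Id3KO. Cd24a read 6.69 and 5.48 in WT stage 1. The part of these markers in the chaperone values was not tested. In sorted bulk RNA, fewer cells of a type and less RNA per cell cannot be told apart.

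Over the whole set, the WT stage 2 arrays stood lowest. After each member's mean over the 10 arrays was subtracted, the median member was at -0.07, -0.03 and -0.08 (log2) on the WT stage 2 arrays. It was at 0.07, 0.03 and 0.00 on the Id3KO stage 2 arrays, at 0.03 and 0.01 in WT stage 1, and at 0.02 and 0.04 in Id3KO stage 1. The WT stage 2 arrays thus lay below all others, by a few hundredths at the closest. All differences below are on the log2 scale, with the SE of the moderated fit.

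At stage 2, 50 of 75 members (66.7%) were above 0 in Id3KO minus WT, against 51.6% of all probe sets tested, and the median difference was 0.12 against 0.01. In 20 members (26.7%) all 3 Id3KO arrays lay above all 3 WT arrays, which 10.9% of all probe sets did. The reverse was seen in Hsp90b1 and Dnajc14, 2.67% of members against 10.5% of all probe sets. By the call, an adjusted p under 0.05, 0 members passed in either direction, while 1.82% of all probe sets were called higher and 2.39% lower. An unadjusted p under 0.05 was reached by 16 members (21.3%) and by 16.9% of all probe sets. For 71 of 75 members the 95% interval of the difference stayed within 2-fold.

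At stage 1 no such displacement was seen. Of 75 members 38 were above 0, the median was 0.00, and 0 were called, with 0.459% of all probe sets called higher and 0.343% lower. An unadjusted p under 0.05 was reached by 8 members, 10.7%, and by 10.5% of all probe sets. With 2 arrays a group, the median SE of a member was 0.12 at stage 1 and 0.10 at stage 2. The difference between the stages was itself tested as the interaction of genotype and stage: 58 of 75 members were above 0, with a median of 0.10 against 0.01 for all probe sets. In that test 0 members were called, as were 0% of all probe sets in either direction, and 4 members (5.33%) had an unadjusted p under 0.05, against 7.07% of all probe sets.

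**Figure D1:**
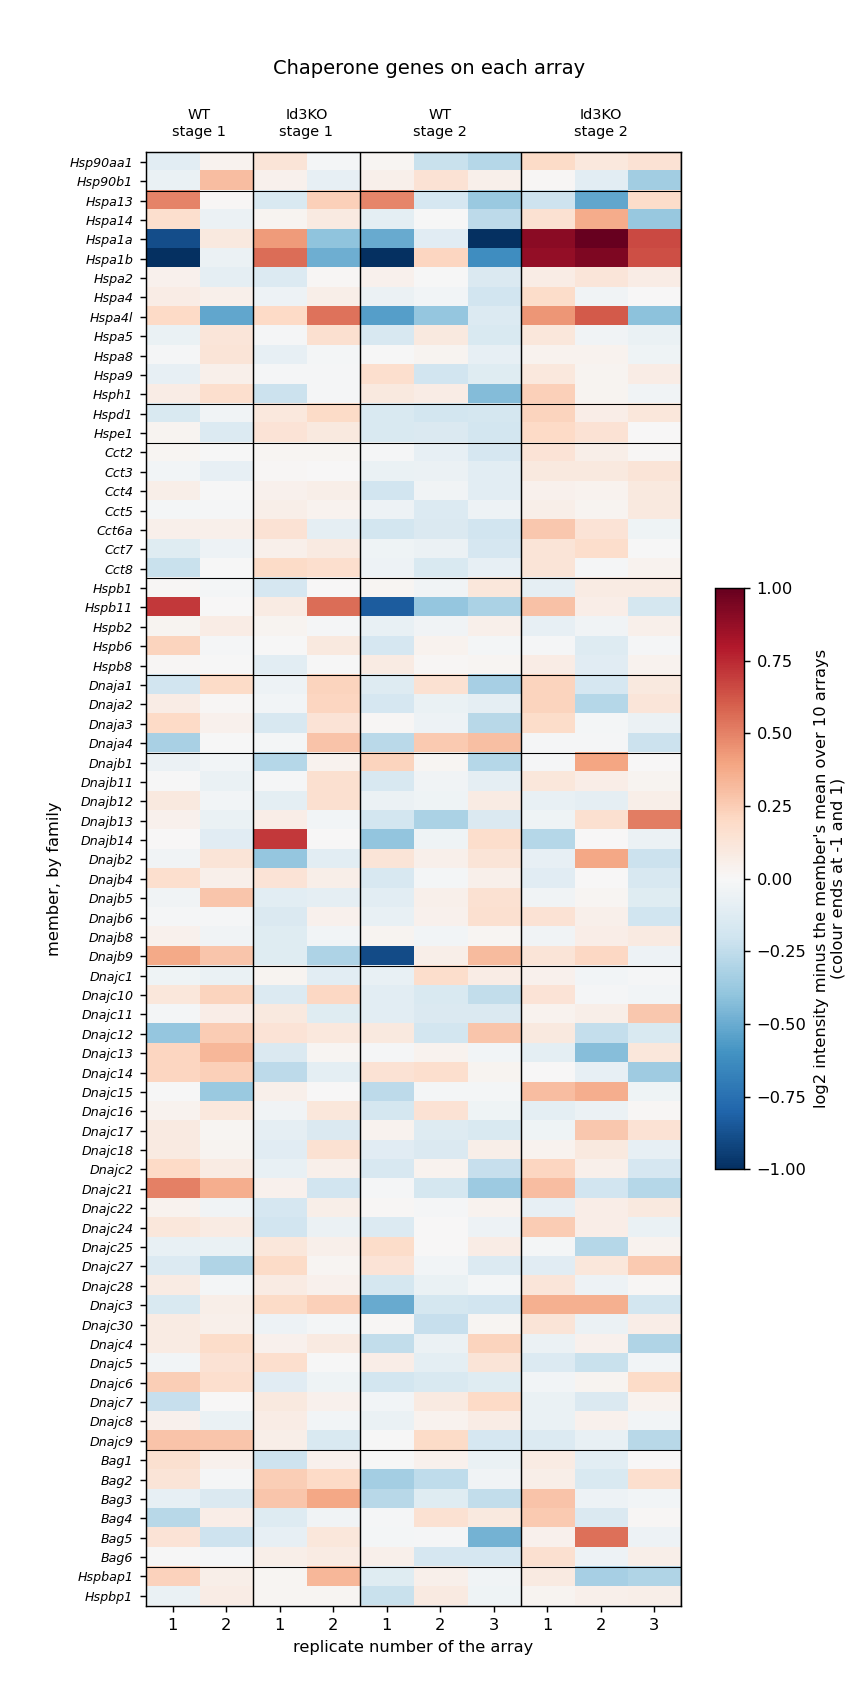
Log2 intensity of the 75 members (rows, grouped by family) on each of the 10 arrays (columns, by group and replicate number), minus the member's mean over the arrays, with the colour ending at -1 and 1. Hspa1a and Hspa1b are the rows of strongest contrast, high on all 3 Id3KO stage 2 arrays, and the 7 Cct rows are paler or redder in Id3KO stage 2 than in WT stage 2.

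Averaged over both stages, genotype gave 2 calls among the members, both higher in Id3KO, which is 2.67% of members against 2.18% of all probe sets. None was called lower, against 2.79% of all probe sets. In 5 members, Bag3, Cct3, Cct5, Cct7 and Hspd1, all 5 Id3KO arrays lay above all 5 WT arrays (6.67%, against 3.1% of all probe sets). In 1 member, Dnajc14, they lay below (1.33% against 3.75%). The share of members called was therefore near the background, and the median difference was 0.02 against 0.00. Leaving out 1 array at a time gave 0 to 3 calls. An unadjusted p under 0.05 was reached by 18 members (24%) and by 16.8% of all probe sets.

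Among the Hsp70 proteins, the ATP-driven core of the system, the stress-inducible pair Hspa1a and Hspa1b stood out by size. Hspa1a had log2 intensities of 6.93 and 7.91 in WT stage 1, 8.24 and 7.41 in Id3KO stage 1, 7.31, 7.70 and 6.52 in WT stage 2, and 8.72, 8.94 and 8.48 in Id3KO stage 2. The Id3KO stage 2 arrays were above every other array, whereas the stage 1 groups overlapped. The difference was 1.54 ± 0.36 at stage 2, a 2.90-fold higher geometric mean (95% interval of the log2 difference 0.72 to 2.35), and its adjusted p by limma, 0.0505, missed the threshold. At stage 1 it was 0.41 ± 0.44 (adjusted p = 0.842 by limma), and the interaction was 1.13 ± 0.57 (adjusted p = 0.74). The stage 2 value ranged from 1.21, without WT stage 2 replicate 3, to 1.80, without WT stage 2 replicate 2. It passed the threshold in 8 of 21 alternative settings. Among the 8 is a replicate block with the Id3KO stage 1 numbers crossed, chosen after seeing the data, whereas the block as labelled did not pass. The 8 also include the fits without WT stage 1 replicate 1 or replicate 2 (1.54 in each), which leave 1 array in that group.

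Hspa1b gave 8.33 and 9.29 in WT stage 1, 9.90 and 8.86 in Id3KO stage 1, 8.30, 9.56 and 8.72 in WT stage 2, and 10.22, 10.28 and 9.99 in Id3KO stage 2. Again the Id3KO stage 2 arrays were the highest of all and the stage 1 groups overlapped. The stage 2 difference was 1.30 ± 0.38 (adjusted p = 0.105 by limma), with 1.23 and 1.13 from the other kept probe sets of the gene. Both genes encode almost the same protein, so probe sets for one can also bind transcripts of the other, and the pair is best read as a single measurement. The SD between arrays of a group was 0.60 and 0.70 for Hspa1a in the WT groups, 0.59 in Id3KO stage 1 and 0.23 in Id3KO stage 2.

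**Figure D2:**
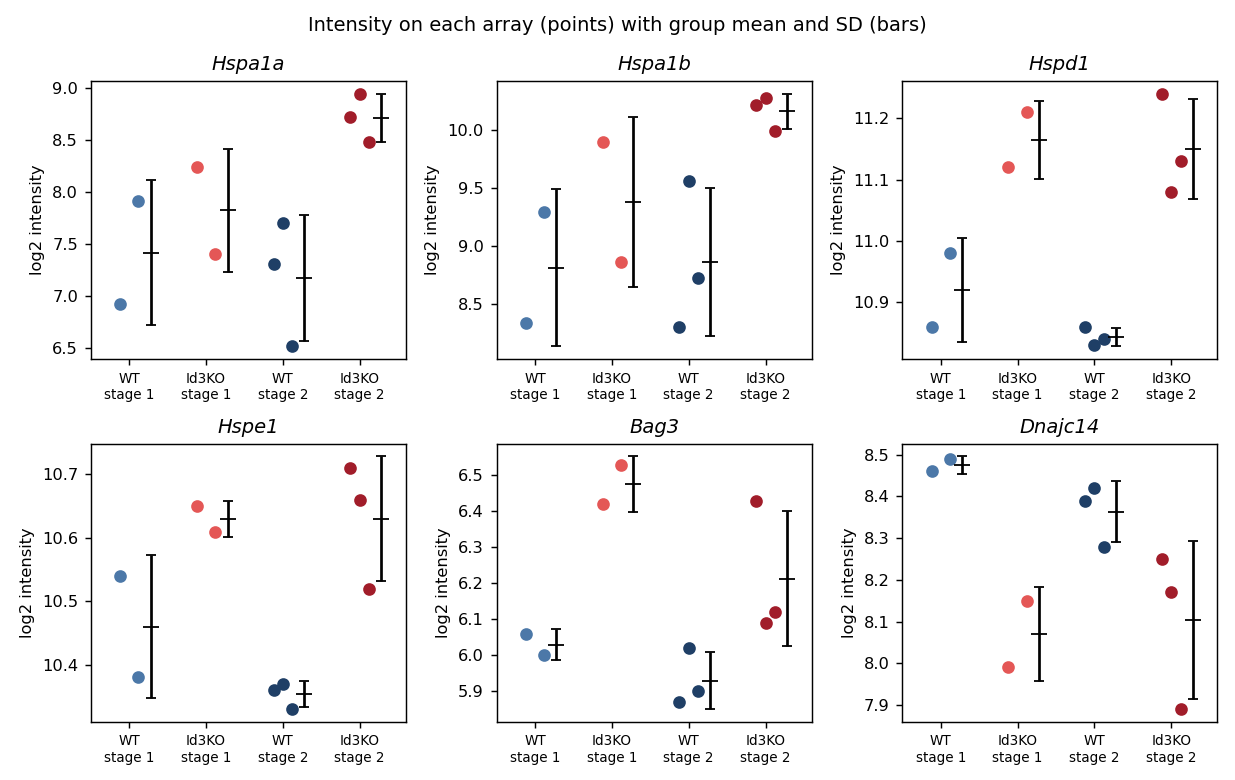
Log2 intensity of Hspa1a, Hspa1b, Hspd1, Hspe1, Bag3 and Dnajc14 on each array (points), with the mean and SD of each group (bars); each panel has its own axis, which does not start at 0. Hspa1a and Hspa1b are high on the 3 Id3KO stage 2 arrays with wide scatter elsewhere, whereas Hspd1 and Bag3 are higher in Id3KO, and Dnajc14 lower, at both stages with no overlap between genotypes.

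Of the whole Hsp70 and Hsp110 family, 10 of 11 members were above 0 at stage 2 with a median of 0.14, and 0 were called. Hspa8, the constitutive cytosolic Hsp70, differed by 0.03 ± 0.07, Hspa9, that of mitochondria, by 0.12 ± 0.10, and Hspa5 (BiP), that of the endoplasmic reticulum, by 0.07 ± 0.10. The Hsp110 nucleotide exchange factors gave 0.14 ± 0.08 for Hspa4, 0.16 ± 0.15 for Hsph1 and 0.57 ± 0.28 for Hspa4l (adjusted p = 0.355 by limma). For Hspa4l the Id3KO stage 2 arrays read 7.93, 8.10 and 7.08 and the WT stage 2 arrays 6.94, 7.10 and 7.35, and these groups overlapped. Its 4 other kept probe sets gave -0.03 to 0.17.

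J proteins, which choose clients and start the Hsp70 cycle, form the largest group, with 4 members of class A, 11 of class B and 25 of class C, and none was called in any of the 6 comparisons. At stage 2 the median was 0.13 for class A (3 above 0), -0.02 for class B (5 above 0) and 0.08 for class C (14 above 0). Dnajb1, the main heat-inducible J partner of Hsp70, read 10.46, 10.26 and 9.95 in WT stage 2 and 10.23, 10.63 and 10.24 in Id3KO stage 2. These overlapped, and the difference was 0.15 ± 0.16 (adjusted p = 0.741 by limma). Dnajb13, which is known from motile cilia and sperm, gave 0.42 ± 0.13 (adjusted p = 0.125), with all 3 Id3KO arrays above the WT arrays.

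Dnajc3, a J protein of the endoplasmic reticulum, read 8.68, 9.01 and 8.99 in WT stage 2 and 9.54 on replicates 1 and 2 of Id3KO stage 2, while replicate 3 fell just short of the 9.01 of WT. The groups therefore overlapped through that 1 array. The stage 2 difference was 0.46 ± 0.16 (adjusted p = 0.163 by limma), and without Id3KO stage 2 replicate 3 it was 0.64 (adjusted p = 0.0291). Averaged over the stages it was 0.36 ± 0.12 (adjusted p = 0.165), and 0.45 without that array (adjusted p = 0.0277). The 3 other kept probe sets gave 0.59, 0.16 and -0.10 at stage 2.

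Dnajc14, a J protein of the endoplasmic reticulum membrane, was the member with the lowest average difference between the genotypes. It read 8.46 and 8.49 in WT stage 1, 8.39, 8.42 and 8.28 in WT stage 2, 7.99 and 8.15 in Id3KO stage 1, and 8.25, 8.17 and 7.89 in Id3KO stage 2. All Id3KO arrays were below all WT arrays. The average difference was -0.33 ± 0.08 (adjusted p = 0.0548 by limma), and it passed the threshold in 6 of 20 alternative settings. Among the 6 is the replicate block with crossed Id3KO stage 1 numbers, chosen after seeing the data. The 6 also include array weights (adjusted p = 0.0471 by limma), 1 probe set per gene (0.0354) and the mean of all probe sets (0.0413). A further one is the fit without Id3KO stage 2 replicate 1 (-0.37, 0.0456). At each stage alone it was -0.41 ± 0.13 and -0.26 ± 0.10, with 0.264 and 0.24 as adjusted p by limma. Its other kept probe sets gave -0.24 and -0.08 on average.

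Bag3, the co-chaperone that couples Hsp70 to selective autophagy, was 1 of the 2 called members. It read 6.06 and 6.00 in WT stage 1, 5.87, 6.02 and 5.90 in WT stage 2, 6.42 and 6.53 in Id3KO stage 1, and 6.43, 6.09 and 6.12 in Id3KO stage 2. Each Id3KO array was above each WT array, but all values lay close to the filter, where dim probe sets compress differences. The average difference was 0.36 ± 0.08, 1.29-fold (adjusted p = 0.0373 by limma), made up of 0.44 ± 0.12 at stage 1 and 0.28 ± 0.10 at stage 2. The call was lost without any 1 of 7 arrays: WT stage 1 replicate 1 or 2 (adjusted p = 0.104 and 0.132 by limma), WT stage 2 replicate 1, 2 or 3 (0.0743, 0.0588 and 0.0873), and Id3KO stage 1 replicate 1 or 2 (0.0855 and 0.121). The value itself stayed between 0.31 and 0.39 in all settings run. Of the other 5 Bag genes 4 were above 0 at stage 2, from -0.03 for Bag4 to 0.34 for Bag5, and none was called.

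The Hsp90 paralogues pointed in opposite directions. Hsp90aa1, the inducible cytosolic form, read 11.28 and 11.42 in WT stage 1, 11.51 and 11.36 in Id3KO stage 1, 11.40, 11.16 and 11.10 in WT stage 2, and 11.57, 11.49 and 11.53 in Id3KO stage 2. The stage 2 groups did not overlap, and the difference was 0.31 ± 0.10 (adjusted p = 0.128 by limma). A further probe set gave 0.61 ± 0.15 (adjusted p = 0.0661), and the dimmest, near background, gave -0.00. Hsp90b1 (Grp94), the form of the endoplasmic reticulum, gave -0.23 ± 0.12 (adjusted p = 0.397), with all 3 Id3KO stage 2 arrays below WT stage 2. Hsp90ab1 was not analysed here.

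**Figure D3:**
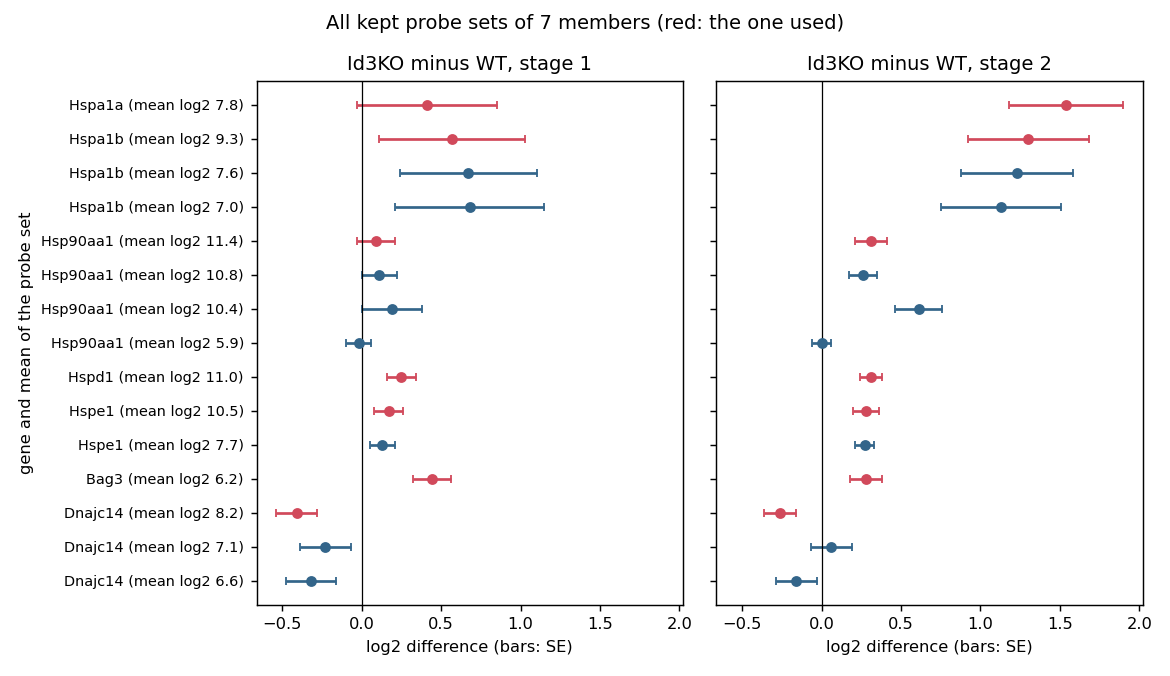
Difference between Id3KO and WT (log2, x axis) at stage 1 (left) and stage 2 (right) for every kept probe set of 7 members, with bars of 1 SE and the probe set used in red. The 3 probe sets of Hspa1b lie between 1.13 and 1.30 at stage 2, those of Hsp90aa1 range from -0.00 to 0.61, and 1 of 3 for Dnajc14 lies above 0 at stage 2.

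In mitochondria, Hspd1 was the other called member. It read 10.86 and 10.98 in WT stage 1, 11.12 and 11.21 in Id3KO stage 1, 10.86, 10.83 and 10.84 in WT stage 2, and 11.24, 11.08 and 11.13 in Id3KO stage 2. Every Id3KO array was above every WT array. The average difference was 0.28 ± 0.06, 1.21-fold (adjusted p = 0.0263 by limma), from 0.25 ± 0.09 at stage 1 and 0.31 ± 0.07 at stage 2, where adjusted p was 0.345 and 0.0525. The interaction was 0.05 ± 0.11. The averaged call was lost without WT stage 1 replicate 1 or 2 (adjusted p = 0.113 and 0.0546 by limma), WT stage 2 replicate 2 or 3 (0.0672 and 0.0664), Id3KO stage 1 replicate 1 or 2 (0.061 and 0.0916), or Id3KO stage 2 replicate 1 (0.0523). The value stayed between 0.25 and 0.31 in all settings run.

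Hspe1, the lid of the Hspd1 ring and its neighbour across the interval shown in part above, had a similar profile. It read 10.54 and 10.38 in WT stage 1, 10.65 and 10.61 in Id3KO stage 1, 10.36, 10.37 and 10.33 in WT stage 2, and 10.71, 10.66 and 10.52 in Id3KO stage 2. The genotypes did not overlap within either stage, and the lowest Id3KO array (10.52) was just below the highest WT array (10.54). The difference was 0.17 ± 0.09 at stage 1, 0.28 ± 0.08 at stage 2 and 0.22 ± 0.06 on average, with adjusted p of 0.609, 0.0925 and 0.0807 by limma. Its other probe set gave 0.27 at stage 2 (adjusted p = 0.0527). All 7 members listed for mitochondria were above 0 at stage 2, from 0.12 to 0.31 with a median of 0.25. At stage 1, 5 of these 7 were above 0, with a median of 0.03. On average 1 was called, Hspd1. The list was chosen by hand and need not hold every mitochondrial member.

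The Cct genes, which encode subunits of the cytosolic ring that folds actin and tubulin, gave an even pattern. All 7 were above 0 at stage 2, from 0.14 for Cct5 to 0.29 for Cct6a with a median of 0.17, and 0 were called, with 0.15 as the lowest adjusted p by limma. Relative to each subunit's mean, the 7 subunits averaged -0.08, -0.10 and -0.13 on the WT stage 2 arrays and 0.12, 0.08 and 0.05 on the Id3KO stage 2 arrays. At stage 1 the averages were -0.04 and -0.02 in WT and 0.07 and 0.04 in Id3KO. The genotypes thus did not overlap at either stage, while the gap was smaller at stage 1, where 6 of 7 were above 0 with a median of 0.06. Tcp1, the first subunit by its other name and so no member, gave 0.30 ± 0.11 at stage 1 and 0.24 ± 0.09 at stage 2, with 0.36 and 0.199 as adjusted p by limma.

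**Figure D4:**
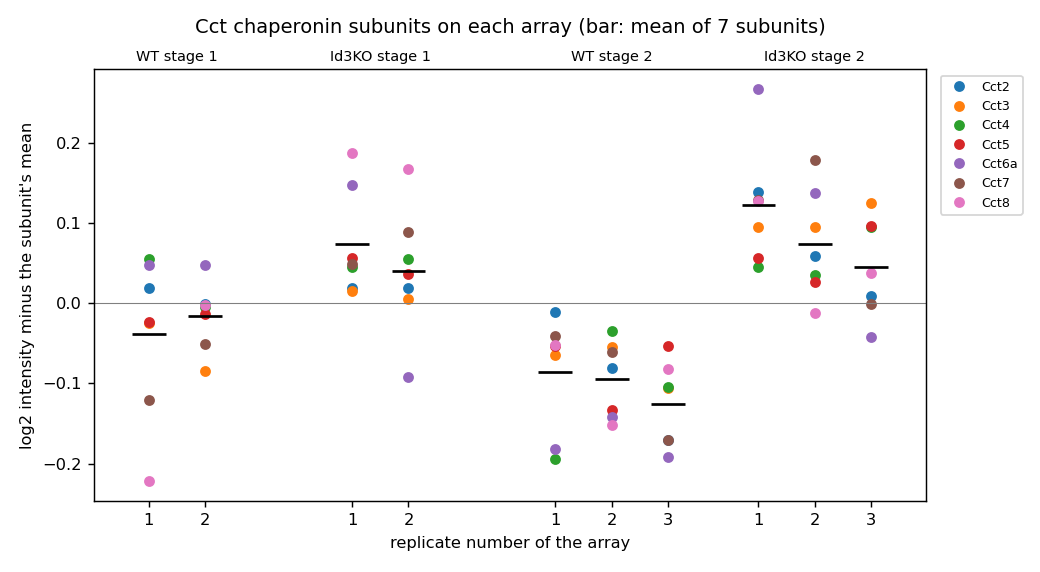
Log2 intensity of the 7 Cct subunits (coloured points) on each array, minus the subunit's mean over the 10 arrays, with the mean of the 7 as a bar. The bars lie between -0.13 and -0.02 on the 5 WT arrays and between 0.04 and 0.12 on the 5 Id3KO arrays.

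The small heat shock proteins, ATP-independent holders of unfolded clients, stayed near 0. Hspb1, Hspb2, Hspb6 and Hspb8 differed by -0.05 to 0.01 at stage 2, and Hspb2 was among the members closest to the filter. Hspb11, the intraflagellar transport protein, read 8.48 and 7.78 in WT stage 1, 7.86 and 8.33 in Id3KO stage 1, 6.94, 7.39 and 7.46 in WT stage 2, and 8.07, 7.84 and 7.60 in Id3KO stage 2. The WT stage 2 arrays were lowest and overlapped no other group. Its difference was 0.57 ± 0.23 between genotypes at stage 2 (adjusted p = 0.235 by limma) and -0.87 ± 0.25 between stages in WT (adjusted p = 0.431).

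**Figure D5:**
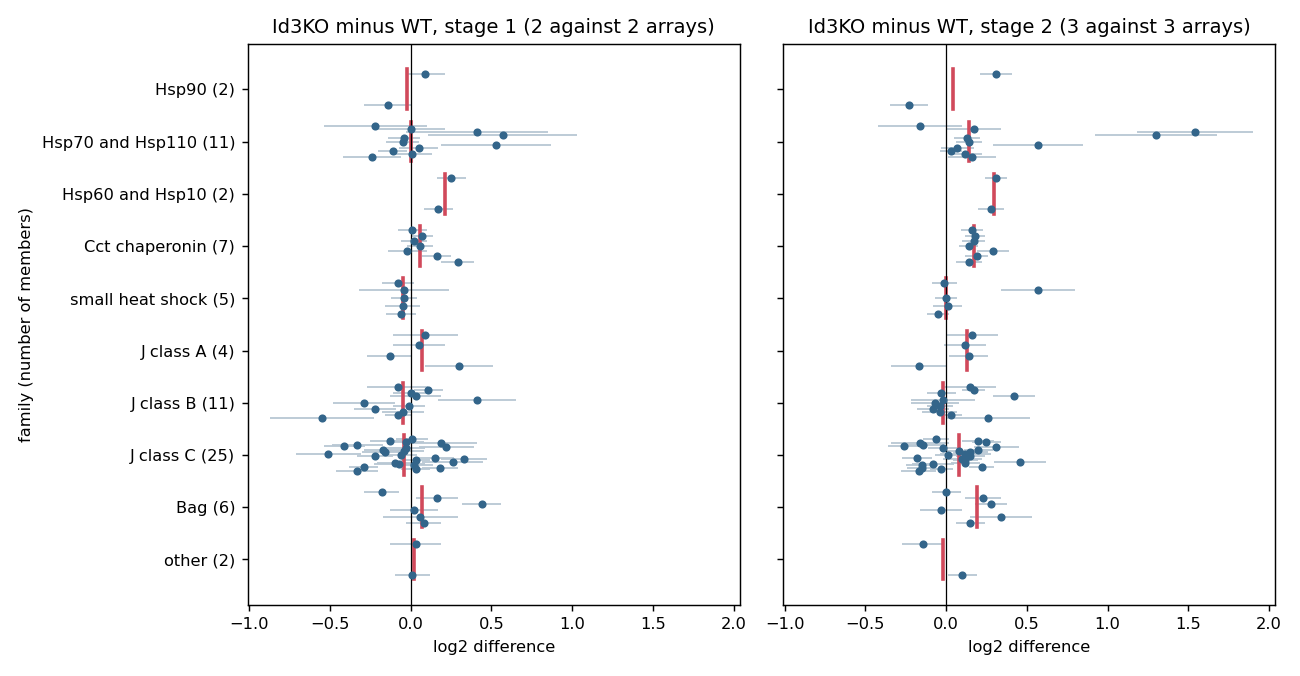
Difference between Id3KO and WT (log2, x axis) at stage 1 (left) and stage 2 (right) for each member (points, bars of 1 SE) by family (rows, with the number of members), with the family median in red. At stage 2 the medians of the Cct (0.17), Hsp60 and Hsp10 (0.29) and Bag (0.19) families lie above 0, and Hspa1a and Hspa1b lie past 1.

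Members were also grouped by regulation and by compartment. Of 13 heat-shock-inducible members 11 were above 0 at stage 2, with a median of 0.28, and 0 were called there. On average over the stages 9 were above 0 and 2 were called, Bag3 and Hspd1, where 2.18% of all probe sets were called higher. These are the only called members, and the lists were chosen with earlier results of these data known. The count is therefore no independent evidence about inducible genes, and each call was lost without certain single arrays, as given above. The list holds Hspa1a and Hspa1b but also Hspa8 (0.03), Hspb1 (-0.01) and Dnajb4 (-0.04), which are at 0 within their SE. Of 10 members listed for the endoplasmic reticulum 5 were above 0 at stage 2, with a median of 0.02 and 0 calls. That list does not hold Dnajc14 (-0.26), described above as a protein of the endoplasmic reticulum membrane. No test of the difference between these groups was made.

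Between the stages, no member was called in either genotype. In WT, 17 of 75 were above 0 from stage 1 to stage 2 (22.7%, against 47.7% of all probe sets), with a median of -0.10 against -0.01. The call rate over all probe sets was also low, with 0.012% of them called higher and 0.00399% lower. An unadjusted p under 0.05 was reached by 4 members (5.33%) and by 8.06% of all probe sets. The lowest members were Hspb11, given above, Dnajc21 (-0.62 ± 0.18, adjusted p = 0.437 by limma), a factor of ribosome maturation, and Dnajb9, an inducible J protein of the endoplasmic reticulum (-0.50 ± 0.29, adjusted p = 0.741). Dnajc21 read 8.33 and 8.19 in WT stage 1 and 7.81, 7.65 and 7.46 in WT stage 2, which did not overlap. Dnajc6, an uncoating factor of clathrin vesicles, had the lowest adjusted p, 0.291 by limma, at -0.36 ± 0.09. This comparison, the stage 2 genotype comparison and the interaction all use the WT stage 2 arrays.

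In Id3KO, 39 of 75 were above 0 between the stages, the median was 0.01, and 0 were called, as were 0% of all probe sets, with 2 members (2.67%) at an unadjusted p under 0.05, against 4.51% of all probe sets. Hspa1a had the highest value, 0.89 ± 0.40 (adjusted p = 1 by limma), with the stage 2 arrays all above those of stage 1. The highest interaction after Hspa1a was that of Dnajb9, 0.81 ± 0.42 (adjusted p = 0.741). Its stage 1 difference between the genotypes was -0.55 ± 0.32 and that at stage 2 was 0.26 ± 0.26, and its replicate 1 of WT stage 2 stood apart at 6.44 against 7.39 and 7.65.

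Other genes of protein folding are set beside stage 2 rates over all probe sets of 1.82% called higher and 2.39% lower. Of 27 kept further cytosolic chaperones and co-chaperones, 1 was called at stage 2, Nudc, an Hsp90-associated protein, higher in Id3KO by 0.47 ± 0.09 (adjusted p = 0.0282 by limma), and the median was 0.07. Hsbp1, a binder of heat shock factors, rose by 0.67 ± 0.10 (adjusted p = 0.00712), whereas its dimmer probe set gave 0.29 (adjusted p = 0.179). Hsf2 and Hsf4 were below the filter, and Hsf1 was not analysed here.

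Of 25 kept genes of endoplasmic reticulum folding and the unfolded protein response, 1 rose at stage 2, Creld2 (0.55 ± 0.11, adjusted p = 0.0273 by limma), and 1 fell, Edem1 (-0.40 ± 0.08, adjusted p = 0.0273), a factor that sends misfolded glycoproteins for degradation. The median of that list was 0.04. Of 12 mitochondrial folding and protease genes 2 rose at stage 2: Clpp, a matrix protease (0.51 ± 0.11, adjusted p = 0.0401), and Tomm70a, an import receptor for chaperone-bound precursors (0.35 ± 0.07, adjusted p = 0.0327). The 3 other probe sets of Tomm70a gave 0.27, 0.13 and -0.23 and were not called. Of 26 proteasome subunits 0 were called, with a median of 0.12 at stage 2.

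Lists of growth and amino acid stress were read beside the members on the same arrays. Of 20 Myc and nucleolar genes, 5 rose at stage 2 (Srm, Mybbp1a, Gnl3, Nop2 and Wdr12) with 0 lower and a median of 0.16. Of all probe sets 1.82% were called higher there and 2.39% lower. The other probe sets of Mybbp1a (0.32) and Wdr12 (0.23) were not called. On average over the stages Srm, Nolc1, Gnl3 and Nop2 were called higher, as were 2.18% of all probe sets. Further probe sets of Nolc1 gave 0.15 and 0.03 on average and were not called. Srm, Gnl3 and Nop2 had no further kept probe set. Of 14 kept ATF4 and amino acid stress genes, Asns (asparagine synthetase) rose at both stages (1.84 ± 0.30 and 2.30 ± 0.25, adjusted p = 0.0343 and 0.00187 by limma), and the list median was 0.14 at stage 2. On average over the stages Phgdh, an enzyme of serine synthesis, was lower in Id3KO (-0.46, adjusted p = 0.0127), and the immediate early gene Egr2 was higher (0.51, adjusted p = 0.0153). Of 14 kept immediate early genes, which respond quickly to stimulation or handling of cells, 0 were called at either stage, with medians of 0.08 and -0.18. The part of growth, amino acid stress, stimulation or handling in the chaperone values was not tested.

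Of the 43 members with more than 1 kept probe set, 17 had all of them on the same side of 0 at stage 1, 22 at stage 2 and 23 on average. Of all 161 kept probe sets of members, 2 were called on average and 0 at either stage.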

How the data were processed

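The authors deposited intensities per probe set on a linear scale (29 to 15399), normalized with RMA per the submitters' processing notes, in a version and with a build not given in the sources used here. RMA makes the arrays' distributions alike, so a change shared by most genes would not show. Log2 was taken here, whereas the plan had assumed deposited log2 values. Gene names came from the platform annotation: of 25061 kept probe sets 20942 had 1 symbol, 593 several and 3526 none, and only the first were used by name. All 75 members matched the RefSeq gene table by gene ID.

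The model was limma's (version 3.58.1, under R 4.3.3), in which the 4 groups each have a mean and share 1 estimate of the spread (6 residual and 2.80 prior degrees of freedom, two-sided tests), with Benjamini-Hochberg adjustment over the 25061 probe sets of each of the 6 comparisons and an adjusted p under 0.05 as the call. Printed adjusted p-values are from this fit unless a setting is named. Intervals are at 95%. The number of arrays limits the precision. The fit was tested on simulated data. Members and gene lists were chosen with earlier results of these data known. Named were called members, the 4 highest and 4 lowest of each comparison where they add to a family's account, examples of each family or compartment, and called genes of the lists. Replicate numbers did not pair the arrays (correlations of deviations -0.31 to 0.13). Alternatives were filters, normalizations, variance models, blocks, probe set choice and each array left out in turn.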

Additional observations from a re-analysis of the deposited data

How the results depend on the processing

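The direction of the named members' differences held in every setting run, with 2 exceptions under the mean of all probe sets of a gene: Dnajc13 at stage 1 (0.00) and Bag4 between the stages in WT (-0.07). The cause was not tested. No member was called at stage 1, between the stages or in the interaction under any setting. At stage 2, where 0 members were called, the count was 1 with no filter (Hspd1), 1 with a stricter filter at log2 6.5 (Hspa1a), 1 after a further quantile normalization (Hspa1a), 3 with an intensity trend and robust prior (Cct3, Hspa1a and Hspd1), 2 with array weights (Hsp90aa1 and Hspd1), 2 with 1 probe set per gene (Hspa1a and Hspd1) and 3 with the mean of all probe sets (Hspa1a, Hspd1 and Hspe1). The stage 2 median of members was 0.08 with no filter and 0.08 with the mean of all probe sets. For genotype averaged over the stages, the count of 2 became 1 with the stricter filter (Hspd1, with Bag3 not kept) and 4 with the mean of all probe sets (Bag3, Dnajc14, Hspd1 and Hspe1).

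With the replicate number as a block the averaged count was 1 (Dnajc14, adjusted p = 0.0452 by limma), with 0.0813 for Bag3 and 0.0758 for Hspd1, and the block changed no other call among the members. A crossed pairing of the Id3KO stage 1 arrays, chosen after seeing the data, gave 2 calls at stage 2.

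Leaving out each array in turn gave 0 to 1 calls at stage 2 and 0 to 3 on average, with member medians from -0.03 to 0.02 at stage 1, 0.07 to 0.13 at stage 2, -0.02 to 0.05 between the stages in Id3KO, 0.07 to 0.15 for the interaction and 0.01 to 0.05 on average. Where 1 array of a stage 1 group was left out, the lone array was assumed to vary like the other groups. Probe sets near the filter, such as those of Bag3, Dnajb14 and Hspb2, measure differences with little signal over background.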
